A study of Homo sapiens with 44 samples.

Results

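The 39 genes described here encode the contractile apparatus of smooth muscle and the actin cytoskeleton around it. They were taken as a list of symbols, chosen with earlier results of these data known. The count table of the series held all 39 of them among its 40663 symbols. The filter on low counts kept 38 of the 39, so DES was described but not tested.

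The samples were cultures of Ccd-18Co, a human colon fibroblast line from ATCC used up to passage 20, so all libraries derive from 1 line and no donor tissue was measured. The cells were starved of serum for 72 h and then left unstimulated or given 1 of 10 cytokines in serum-free medium for 24 h. IL-1β was used at 0.1 ng/ml according to the labels. A lower dose of IL-1β is given in another place in the study's text, and which was used cannot be told from the files. The interferons IFNα and IFNγ, the interleukins IL-6, IL-13, IL-17A and IL-22, and TNF, TGFβ1 and OSM were each used at 10 ng/ml. Each of the 11 groups held 4 libraries, 44 in all. The labels number the replicates but do not say whether they came from separate cultures, so p-values measure the spread between these libraries only.

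Smooth muscle contracts when calcium and calmodulin activate myosin light chain kinase, which phosphorylates the regulatory light chain of myosin II and lets it pull on actin filaments carrying tropomyosin, calponin and caldesmon. Fibroblasts that take on part of this apparatus are called myofibroblasts, and α-smooth muscle actin, the product of ACTA2, is their usual marker in the gut wall. Many genes of the apparatus are known targets of serum response factor (SRF), which binds the CArG box in their promoters together with its cofactors myocardin and the MRTF proteins.

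The promoter sequences are shown because this box is how SRF is known to reach many of these genes. RefSeq windows of 300 bases (250 before to 50 after an annotated start, GRCh38.p14) were at hand for 34 of the 39 genes. TAGLN, MYL9, MYH11, DES and CAVIN1 had none. A strict CArG box (CC, then 6 bases that are each A or T, then GG, a form that reads the same on both strands) lay in at least 1 window of 9 of the 34 genes, ACTG2, MYLK, LPP, SRF, ACTN1, CNN2, TPM4, SMTN and FLNA. Counted by windows, 9 of 65 (13.8%) held one, against 454 of 35116 windows over all genes (1.29%). ACTA2 had no strict box, but its window held 2 boxes in which 1 of the 6 middle bases is G or C. Allowing that form as well, 16 of the 65 windows (24.6%) and 8.13% of all windows held a box. The motif CATTCC, searched on both strands, was in 26.2% of the members' windows and 14.0% of all windows. A match describes letters in a window and does not show binding. The stretches below run 5′ to 3′ up to the annotated start or 40 bases past the last box, with the boxes in capitals.
ACTA2 (chr10:88952795-88952934, reverse strand): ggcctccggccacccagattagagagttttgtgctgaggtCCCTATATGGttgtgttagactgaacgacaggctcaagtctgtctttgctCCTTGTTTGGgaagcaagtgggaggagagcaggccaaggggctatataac
ACTG2 (chr2:73892858-73892984, forward strand): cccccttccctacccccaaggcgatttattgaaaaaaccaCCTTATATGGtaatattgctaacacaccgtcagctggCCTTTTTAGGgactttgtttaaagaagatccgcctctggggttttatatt
MYLK (chr3:123620593-123620682, reverse strand): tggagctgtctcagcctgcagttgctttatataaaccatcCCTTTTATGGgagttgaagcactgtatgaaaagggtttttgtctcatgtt
TPM4 (chr19:16067325-16067414, forward strand): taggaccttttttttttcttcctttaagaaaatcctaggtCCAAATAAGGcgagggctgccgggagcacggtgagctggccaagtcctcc
ACTN1 (chr14:68977688-68977777, reverse strand): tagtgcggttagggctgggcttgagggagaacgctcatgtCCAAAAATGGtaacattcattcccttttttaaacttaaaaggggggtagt
LPP (chr3:188212489-188212578, forward strand): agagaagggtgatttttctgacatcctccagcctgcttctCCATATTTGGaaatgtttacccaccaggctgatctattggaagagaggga
SRF (chr6:43171199-43171268, forward strand): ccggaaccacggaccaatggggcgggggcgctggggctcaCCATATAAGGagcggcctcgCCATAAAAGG
In ACTA2 the boxes began 121 and 71 bases before the start, in ACTG2 110 and 73 bases, and in SRF itself 30 and 10 bases. The single boxes of MYLK, TPM4, ACTN1 and LPP began 94, 173, 171 and 183 bases before the start. An annotated start need not be the first of its gene. MYLK spans chr3:123610049-123884332 on the reverse strand, so its window, at 123620499-123620798, lies far inside, toward the 3′ end. The LPP window with the box, from 188212462, lies inside a gene that begins at 188153284. The ACTA2 window also lies inside its gene, whose span on the reverse strand ends at 88991339. Which start the counted transcripts used was not tested. Of the genes with a strict box, ACTG2, MYLK, LPP, ACTN1 and TPM4 were called for at least 1 cytokine below and SRF, CNN2, SMTN and FLNA were called for none. For scale, 25 of all 38 tested members were called for at least 1 cytokine, so the genes with a box were not called more often. A link between box and call was not tested.

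The libraries were shallow, with 742173 to 2213424 estimated counts in total (median 1480883), so members with few counts had wide errors. Values are given as CPM (counts relative to the scaled library size), and levels of different genes are set side by side only as CPM per kb of the canonical transcript. The cells carried most of the fibroblast genes examined at high levels, COL1A1 at a mean of 10640.2 CPM and DCN at 15675.0 CPM in unstimulated libraries. THY1 was lower, at 97.8 CPM, and PDGFRB averaged only 5.08 CPM. Markers of other cell types were mostly at or near 0. CDX2 (epithelium), KDR (endothelium), CD3E and CD79A (lymphocytes) and SOX10 (glia) were at 0 in all 44 libraries. Of other markers, KRT20 was at 0 in 43 libraries, S100B in 42, EPCAM, CDH1 and CDH5 in 41, VWF in 37, PTPRC in 35 and PECAM1 in 33, and the highest group mean among these 8 was 1.15 CPM, of VWF. VIL1 averaged 12.4 CPM unstimulated, and CD68 was highest with IFNα, at a mean of 59.1 CPM. Of the visceral smooth muscle markers examined, DES was at 0 in 43 of 44 libraries. Without stimulation MYH11 averaged 2.43 CPM, SYNPO2 6.02, LMOD1 6.13 and CNN1 14.0 CPM. ACTG2, ACTA2 and TAGLN averaged 600, 524 and 348 CPM, more than THY1 and PDGFRB. The line thus carried most of the fibroblast genes examined together with part of the contractile set.

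Without stimulation the 39 genes took 1.80% ± 0.345 of all counts (mean ± SD, n = 4), but spread over 4 orders of magnitude per kb. MYL6, the essential light chain that non-muscle and smooth muscle myosin share, stood first at 4801 CPM per kb (4147 to 5329, lowest to highest library). CNN3, CAV1, TPM1, TPM4, TPM2, ACTG2, ACTA2, CALD1 and DSTN followed with means from 1019.6 down to 297 CPM per kb, and neighbours in that order overlapped between libraries. The kinase gene MYLK came next at 176 CPM per kb, and TAGLN at 92.0, which is counted over a canonical transcript of 3.79 kb. Among the lowest, LMOD1 had 1.56, SYNPO2 0.826, XIRP2 0.557 and MYH11 0.353 CPM per kb, and from RGS5 down to MYH11 the libraries of each gene overlapped those of the next. The 18 tested members with a transcript of at least 55% GC had a median of 7.35 CPM per kb and the 20 under 55% GC a median of 104. Over the 38 members the rank correlation between GC content and level was -0.25, and over 9466 tested genes with a known transcript it was -0.20, points that all share the same libraries.

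**Figure D1:**
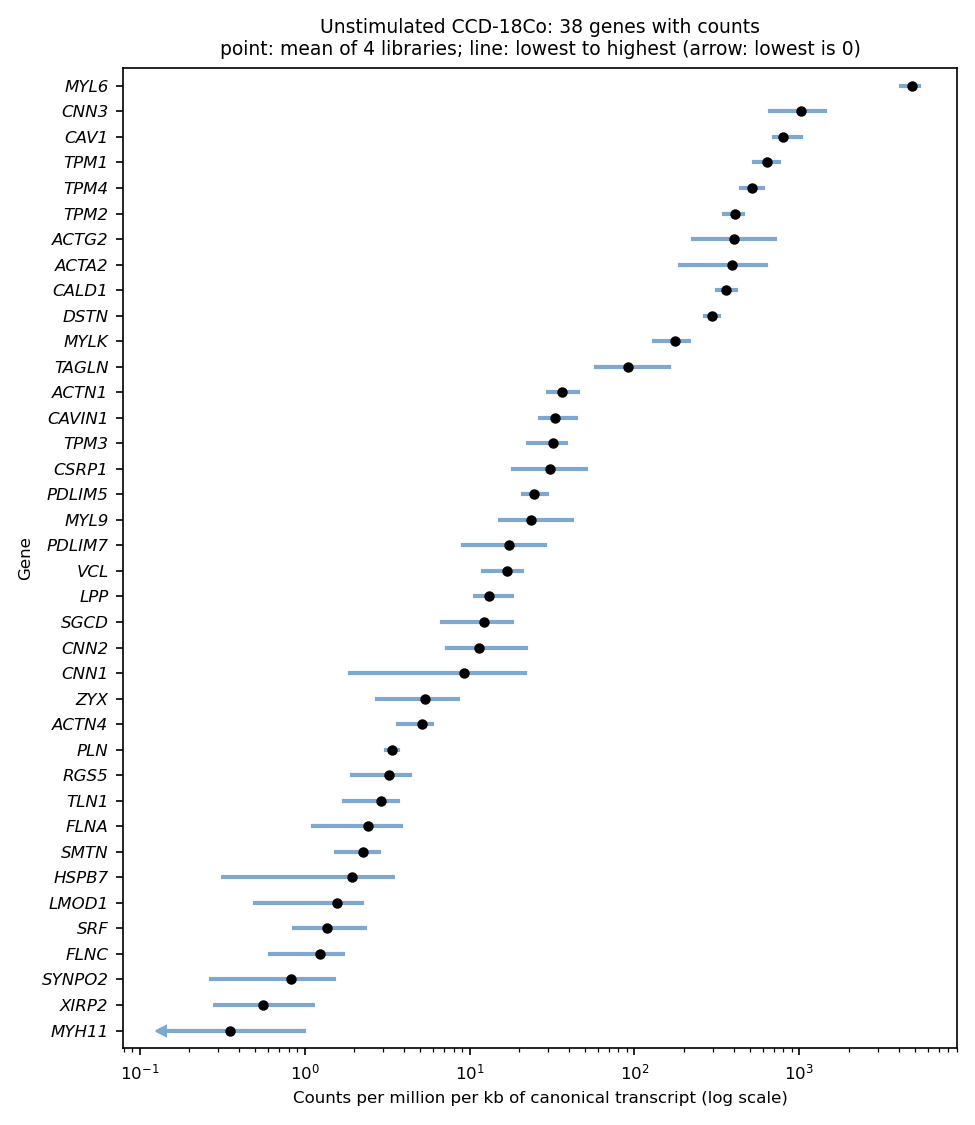
Levels in unstimulated Ccd-18Co in CPM per kb of canonical transcript on a log axis, for the 38 genes with counts in these libraries (DES is at 0). Points are means of 4 libraries and lines run from the lowest to the highest library, with an arrow where the lowest is 0. MYL6 stands apart at the top, and MYH11 is the lowest.

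The question put to the libraries was which cytokines move these genes. Calls rest on an adjusted p below 0.05 (edgeR's quasi-likelihood test, Benjamini-Hochberg over 9513 genes). Over all 11 groups together, 31 of the 38 members differed, against 35.7% of all genes tested. Because the list was chosen with earlier results of these data known, an excess over the share of all genes may stem from that choice. Such shares are given here and below for scale and are no test of the list. TPM3, CNN1, LMOD1, SMTN, FLNA, TLN1 and SRF did not pass that test. In the comparisons with unstimulated libraries, 25 members were called for at least 1 cytokine and 13 for none. The 64 called changes comprised 57 decreases and 7 increases, and the increases were all with TGFβ1 or IL-13. The share of all genes for these pooled counts is not given, so they are not read as an excess. Shares of all genes in each direction follow for each cytokine below. The cultures are bulk samples, so fewer cells carrying a transcript and less transcript per cell cannot be told apart. All 10 comparisons share the same 4 unstimulated libraries. The summed level of 8 fibroblast markers also moved between groups. It was 28552 to 40374 CPM in unstimulated libraries, 23658 to 31867 with IL-1β, 20969 to 26936 with TNF, 16667 to 33278 with IFNγ and 24990 to 29769 with TGFβ1. With IL-17A it was 34489 to 36669, inside the unstimulated range, and with IL-13 39737 to 50752. Its part in the results was not tested.

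IL-1β lowered the most members, 18 of 38 (47.4%) with none called higher, against 3.92% of all genes called lower and 3.46% called higher. The median log2 fold change of the members was -0.94, and that of all genes tested -0.01. IFNγ lowered 12 of 38 (31.6%) and raised none, against 5.13% of all genes lower and 5.52% higher, with a member median of -0.54. IL-17A lowered 11 of 38 (28.9%) and raised none, where 0.925% of all genes were called lower and 0.599% higher, with a member median of -0.71. TNF lowered 9 of 38 (23.7%) and raised none, against 6.09% lower and 5.37% higher over all genes, with a member median of -0.37.

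OSM lowered 3 of 38 (7.89%), against 2.54% of all genes, and raised none, against 1.42%. IFNα lowered only LPP, 1 of 38 (2.63%), against 4.86% of all genes called lower and 4.99% called higher. TGFβ1 raised 3 members and lowered 2 (7.89% and 5.26%), against 2.61% and 3.08% of all genes. IL-13 raised 4 and lowered 1 (10.5% and 2.63%), against 1.53% and 2.4% of all genes. Member medians were 0.15 with TGFβ1 and 0.31 with IL-13. DESeq2's Wald test, a block for replicate number and a term for replicates 1 and 2 against 3 and 4 each called 8 members with IL-13, 6 higher and 2 lower. With library totals alone and no further scaling, the IL-13 split was 2 higher and 2 lower. The TGFβ1 split was 3 higher and 1 lower with that choice and with DESeq2's size factors. No member was called with IL-22, where edgeR called 0% of all genes in either direction, 7 members had an unadjusted p under 0.05, all lower, and DESeq2 called 2. None was called with IL-6, where edgeR called 0.0105% of all genes higher and 0% lower, 1 member had an unadjusted p under 0.05 and DESeq2 called 0. The shares of all genes with an unadjusted p under 0.05, or called by DESeq2 or the other alternatives, are not given. Member counts under those rules therefore have no base and are not read as an excess.

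With the added demand of an absolute log2 fold change above 1.5, which the study's methods used, 5 members remained for IL-1β (2.78% of all genes in either direction), 4 for TNF (4.19%) and 4 for IFNγ (3.53%). The same rule left 2 members for IL-13 (1.47%), 1 for TGFβ1 (1.7%), 1 for OSM (1.3%) and 1 for IL-17A (0.452%). It left 0 for IFNα (3.98%), 0 for IL-22 (0%) and 0 for IL-6 (0.0105%).

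Single libraries moved some of these counts. Without unstimulated replicate 1, 11 members remained called for IL-1β and 5 for IL-17A. The IL-17A count fell to 3 without unstimulated replicate 2 and to 6, 5, 5 and 4 without IL-17A replicates 1, 2, 3 and 4. That of TGFβ1 fell to 2 without TGFβ1 replicate 1 and to 3 without TGFβ1 replicate 3 or unstimulated replicates 2 or 4.

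The choice of libraries and genes entering the fit also ended calls. Fitted on the libraries of the groups compared alone, 6 members remained called for IFNγ, 7 for IL-17A and 3 for TGFβ1. The calls lost were CALD1, CAV1, LPP, TPM1, TPM4 and VCL with IFNγ, CALD1, CSRP1, PDLIM5 and TPM1 with IL-17A, CAV1, CSRP1, DSTN and VCL with IL-1β, LPP and MYL6 with TGFβ1, DSTN with TNF and TPM1 with OSM. With all genes that had any count, the calls lost were ACTN4, CAV1, DSTN and VCL with IL-1β, CALD1, PDLIM5 and TPM1 with IL-17A, DSTN and TPM1 with OSM, DSTN with TNF and TPM4 with IFNγ. With library totals alone, MYL6 and TPM2 with IL-13, TPM1 with OSM and LPP with TGFβ1 were lost.

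**Figure D2:**
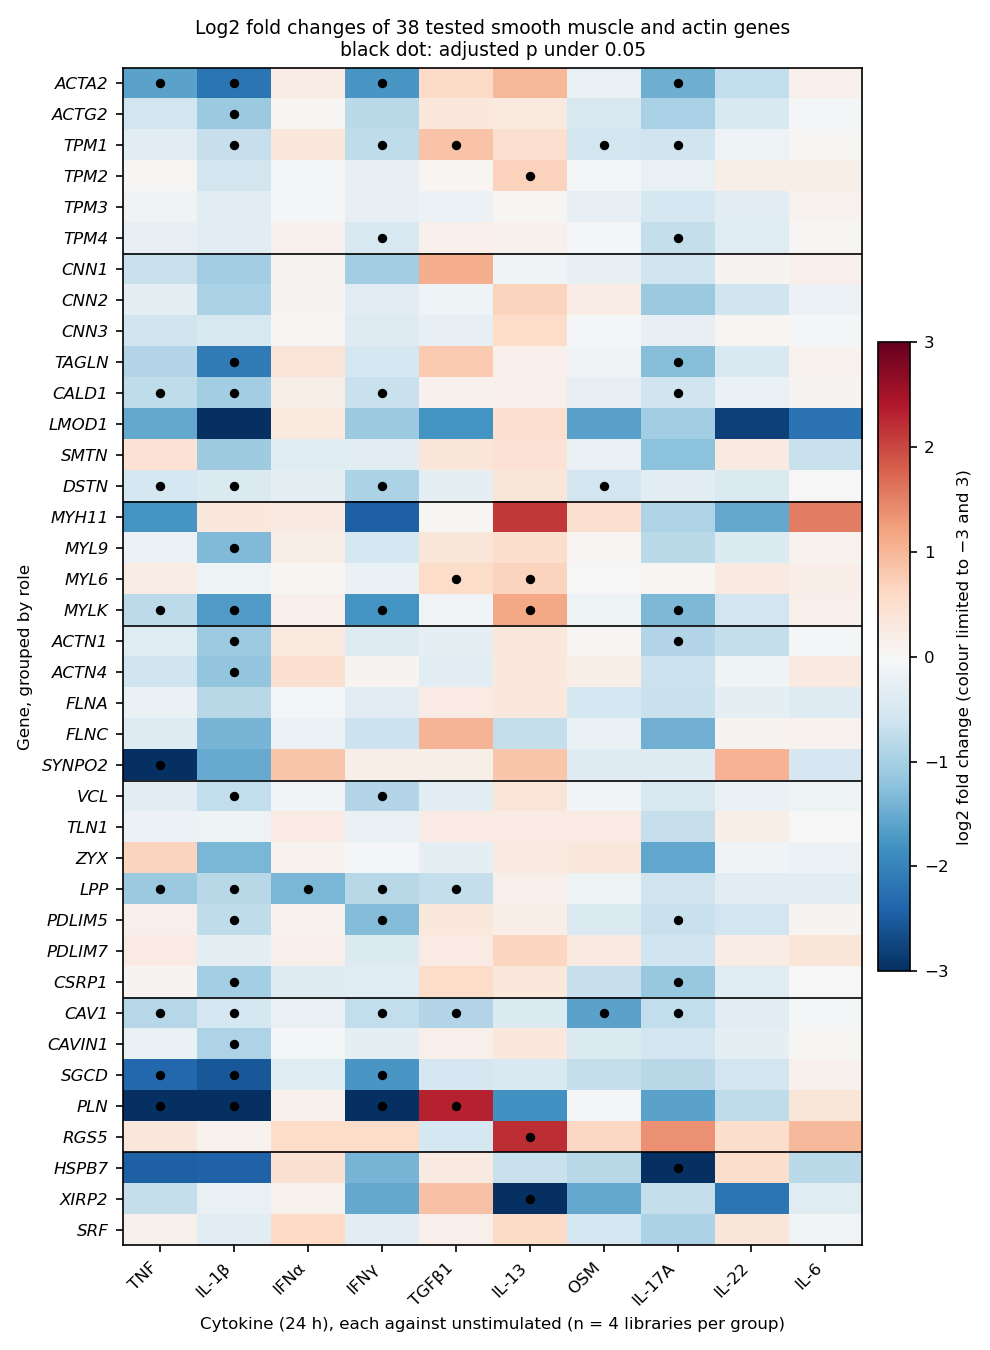
Log2 fold change of each of the 38 tested members (vertical axis, grouped by role) with each cytokine against unstimulated (horizontal axis), 4 libraries per group. Blue is lower, red is higher, colour stops at -3 and 3, and black dots mark an adjusted p under 0.05. The dots crowd the IL-1β, IFNγ, IL-17A and TNF columns on blue fields. Fitted values of XIRP2 with IL-13 and HSPB7 with IL-17A, where all libraries were at 0, depend on the prior count and are no estimate of size.

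Among the actins and tropomyosins, 3 of 6 fell with IL-1β, 3 with IFNγ, 3 with IL-17A and 1 each with TNF and OSM, while TPM1 rose with TGFβ1 and TPM2 with IL-13. ACTA2 (chr10:88935074-88991339, reverse strand, GRCh38) encodes α-smooth muscle actin. Its unstimulated libraries, in the order of replicates 1 to 4 used throughout, held 853, 636, 254 and 354 CPM, a spread of more than 3-fold within 1 group. With IL-1β they held 147, 114, 121 and 79.1 CPM, with IFNγ 235, 197, 116 and 74.8, with TNF 266, 203, 133 and 91.6 and with IL-17A 162, 209.9, 196 and 190.1. All libraries of IL-1β, IFNγ and IL-17A were below all unstimulated ones, and 1 TNF library overlapped them.

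The fall of ACTA2 was 4.55-fold with IL-1β (log2 fold change -2.19, SE 0.39, adjusted p = 8.51e-05), 3.37-fold with IFNγ (log2 fold change -1.75, SE 0.39, adjusted p = 0.00131) and 3.04-fold with TNF (log2 fold change -1.60, SE 0.38, adjusted p = 0.00292). The IL-17A call (log2 fold change -1.47, SE 0.38, adjusted p = 0.0312) passed with all libraries and was lost without unstimulated replicates 1 or 2 or without IL-17A replicates 1, 2, 3 or 4 (adjusted p up to 0.210). The levels with the other cytokines were 938, 806, 343 and 361 CPM with IFNα, 1109, 1186, 496 and 363 with TGFβ1 and 1179, 1319, 937 and 776 with IL-13. OSM libraries held 589, 463, 409.6 and 348 CPM, IL-22 libraries 364, 276, 324 and 298 and IL-6 libraries 907, 769.6, 284 and 379. None of these 6 was called. The log2 fold change was 0.59 with TGFβ1 (95% interval -0.16 to 1.33, adjusted p = 0.416) and 1.00 with IL-13 (95% interval 0.25 to 1.75, adjusted p = 0.135). Intervals here and below are not adjusted for the number of genes, so one can leave out 0 where the adjusted p misses the threshold. Ordered by group mean from IL-1β (115) to IL-13 (1053 CPM), only IL-17A and IL-22 were neighbours whose libraries did not overlap.

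ACTG2 encodes γ-smooth muscle actin, the enteric isoform, and held 1062, 572, 341 and 426 CPM unstimulated. It was called only with IL-1β, at 369, 297, 227 and 216 CPM (log2 fold change -1.12, SE 0.29, adjusted p = 0.00988), a call that held with all libraries and was lost without unstimulated replicate 1 or without IL-1β replicates 3 or 4 (adjusted p up to 0.182). Group means with the other cytokines ran from 306 to 750.0 CPM. Its 11 group means followed those of ACTA2 closely (r = 0.95 on the log2 scale over 11 groups that share 1 set of libraries), and CALD1 was the member most like ACTA2 (r = 0.96).

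TPM1 encodes an α-tropomyosin that lies along the actin filament and was the actin-filament gene with calls in both directions. Unstimulated libraries held 766, 916, 792 and 649 CPM. With TGFβ1 they held 1609, 1585, 1242 and 1184 CPM, all above the unstimulated range (log2 fold change 0.85, SE 0.16, adjusted p = 3.90e-04). It fell to 459.9 ± 110.1 CPM (mean ± SD, n = 4) with IFNγ (log2 fold change -0.76, SE 0.16, adjusted p = 7.07e-04) and to 483 ± 58.0 CPM with IL-1β (log2 fold change -0.69, SE 0.16, adjusted p = 0.00239), from 781 ± 109.7 CPM. Falls with OSM (log2 fold change -0.56, SE 0.16, adjusted p = 0.0326) and IL-17A (log2 fold change -0.61, SE 0.16, adjusted p = 0.0343) were smaller. The OSM call passed with all libraries and was lost without unstimulated replicates 2 or 3 or without OSM replicates 1, 2 or 3 (adjusted p up to 0.163). The IL-17A call passed likewise and was lost without unstimulated replicates 1, 2 or 3 or without IL-17A replicates 1, 2, 3 or 4 (adjusted p up to 0.205).

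TPM2, the β-tropomyosin gene, rose with IL-13 from 485 ± 54.0 to 789 ± 89.2 CPM (log2 fold change 0.70, SE 0.19, adjusted p = 0.0244), with no overlap between the groups, a call that passed with all libraries and was lost without unstimulated replicates 2 or 4 or without IL-13 replicates 1 or 2 (adjusted p up to 0.0986). TPM4, a short tropomyosin of non-muscle filaments, fell from 1271 ± 175 to 773 ± 50.7 CPM with IL-17A (log2 fold change -0.72, SE 0.13, adjusted p = 0.00145) and to 909 ± 84.4 CPM with IFNγ (log2 fold change -0.48, SE 0.13, adjusted p = 0.0108), the latter a call that passed with all libraries and was lost without unstimulated replicate 1 or without IFNγ replicate 3 (adjusted p up to 0.0671). TPM3 was called for none, with group means from 158 to 244 CPM.

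Of the 8 thin filament binding proteins, 3 fell with IL-1β, 2 each with TNF, IFNγ and IL-17A and 1 with OSM, and none rose. TAGLN encodes transgelin (SM22α), an actin-binding protein of smooth muscle, and held 612, 327, 222 and 232 CPM unstimulated. With IL-1β its libraries held 94.4, 66.3, 69.9 and 88.9 CPM, all below the unstimulated range and 4.36-fold lower (log2 fold change -2.12, SE 0.33, adjusted p = 7.77e-06). With IL-17A they held 139, 139.7, 200.3 and 94.8 CPM (log2 fold change -1.29, SE 0.32, adjusted p = 0.0244), again without overlap, a call that passed with all libraries and was lost without unstimulated replicates 1 or 2 or without IL-17A replicates 1, 2 or 4 (adjusted p up to 0.257). TNF at 219.6, 164, 225 and 155 CPM (95% interval -1.51 to -0.23 around -0.87) and IFNγ at 358, 138, 199 and 268 CPM (95% interval -1.17 to 0.10 around -0.53) were not called for TAGLN. TGFβ1 libraries held 855, 849, 456 and 258 CPM and overlapped the unstimulated ones.

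CALD1 encodes caldesmon, which binds actin and tropomyosin and restrains myosin. Its replicates agreed more closely than those of the actins, at 1691, 2084, 1578 and 1807 CPM unstimulated. It read 979, 939, 781 and 752 CPM with IL-1β (log2 fold change -1.05, SE 0.14, adjusted p = 6.25e-07), 1147, 1065, 943 and 1058 with TNF (log2 fold change -0.76, SE 0.14, adjusted p = 1.41e-04), 1382, 1381, 873 and 896 with IFNγ (log2 fold change -0.66, SE 0.14, adjusted p = 0.00116) and 1092, 1275, 1276 and 1103 with IL-17A (log2 fold change -0.59, SE 0.14, adjusted p = 0.0195). In all 4 of these groups every library lay below every unstimulated one. The IL-17A call passed with all libraries and was lost without unstimulated replicate 2 or without IL-17A replicates 1 or 4 (adjusted p up to 0.136). DSTN encodes destrin, an actin-depolymerizing factor, and fell 1.92-fold with IFNγ, from 1011 ± 97.2 to 527 ± 81.8 CPM (log2 fold change -0.94, SE 0.13, adjusted p = 1.25e-06). With all genes that had any count, the calls of DSTN with TNF and OSM given next were lost (adjusted p = 0.0678 and 0.0585). DSTN fell with TNF (log2 fold change -0.52, SE 0.13, adjusted p = 0.00551), OSM (log2 fold change -0.58, SE 0.13, adjusted p = 0.00511) and, by 1.34-fold, with IL-1β (log2 fold change -0.42, SE 0.13, adjusted p = 0.0393), the last a call that passed with all libraries and was lost without unstimulated replicates 1, 2 or 4 or without IL-1β replicates 1, 2, 3 or 4 (adjusted p up to 0.171).

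CNN1 encodes calponin 1, a marker of differentiated smooth muscle that inhibits the myosin ATPase. Its unstimulated libraries held 32.3, 14.6, 2.81 and 6.15 CPM, from 66, 20, 4 and 9 counts, and the highest exceeded the lowest more than 10-fold. TGFβ1 libraries held 28.1, 44.7, 39.9 and 10.3 CPM (95% interval -0.04 to 2.23 around a log2 fold change of 1.09) and were not called. LMOD1 encodes leiomodin 1, an actin nucleator of smooth muscle, with 1.96, 8.75, 5.63 and 8.20 CPM unstimulated and 2.02, 0, 0 and 0 CPM with IL-1β, from 36 and 4 counts over the group. That difference was not called (adjusted p = 0.118). CNN2, CNN3 and SMTN were not called for any cytokine either, with group means from 11.6 to 39.5, 1342 to 2953 and 3.17 to 10.2 CPM.

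The 4 myosin and kinase genes divided between the motor's light chains, its kinase and its muscle heavy chain. MYLK encodes myosin light chain kinase, the enzyme that switches the motor on, and moved in both directions. Unstimulated libraries held 2134, 2181, 1333 and 1473 CPM. IFNγ libraries held 816, 668, 277 and 283 CPM (log2 fold change -1.80, SE 0.27, adjusted p = 2.42e-06), IL-1β libraries 661, 617, 403 and 519 (log2 fold change -1.69, SE 0.27, adjusted p = 8.54e-06) and IL-17A libraries 744, 673, 709 and 650.1 (log2 fold change -1.36, SE 0.26, adjusted p = 0.00236). All 12 of those libraries lay below the unstimulated range, in folds of 3.48, 3.24 and 2.57.

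With IL-13 the kinase gene held 4017, 4390.1, 4017 and 3550.2 CPM, all above the unstimulated range and 2.24-fold higher (log2 fold change 1.17, SE 0.26, adjusted p = 0.00406). The smaller fall with TNF, to 1404, 880.2, 997 and 848 CPM (log2 fold change -0.79, SE 0.26, adjusted p = 0.0388), passed with all libraries and was lost without unstimulated replicates 1 or 2 or without TNF replicates 2, 3 or 4 (adjusted p up to 0.151). Group means with OSM, TGFβ1, IFNα, IL-22 and IL-6 ran from 1204 to 1972 CPM, none of them called.

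**Figure D3:**
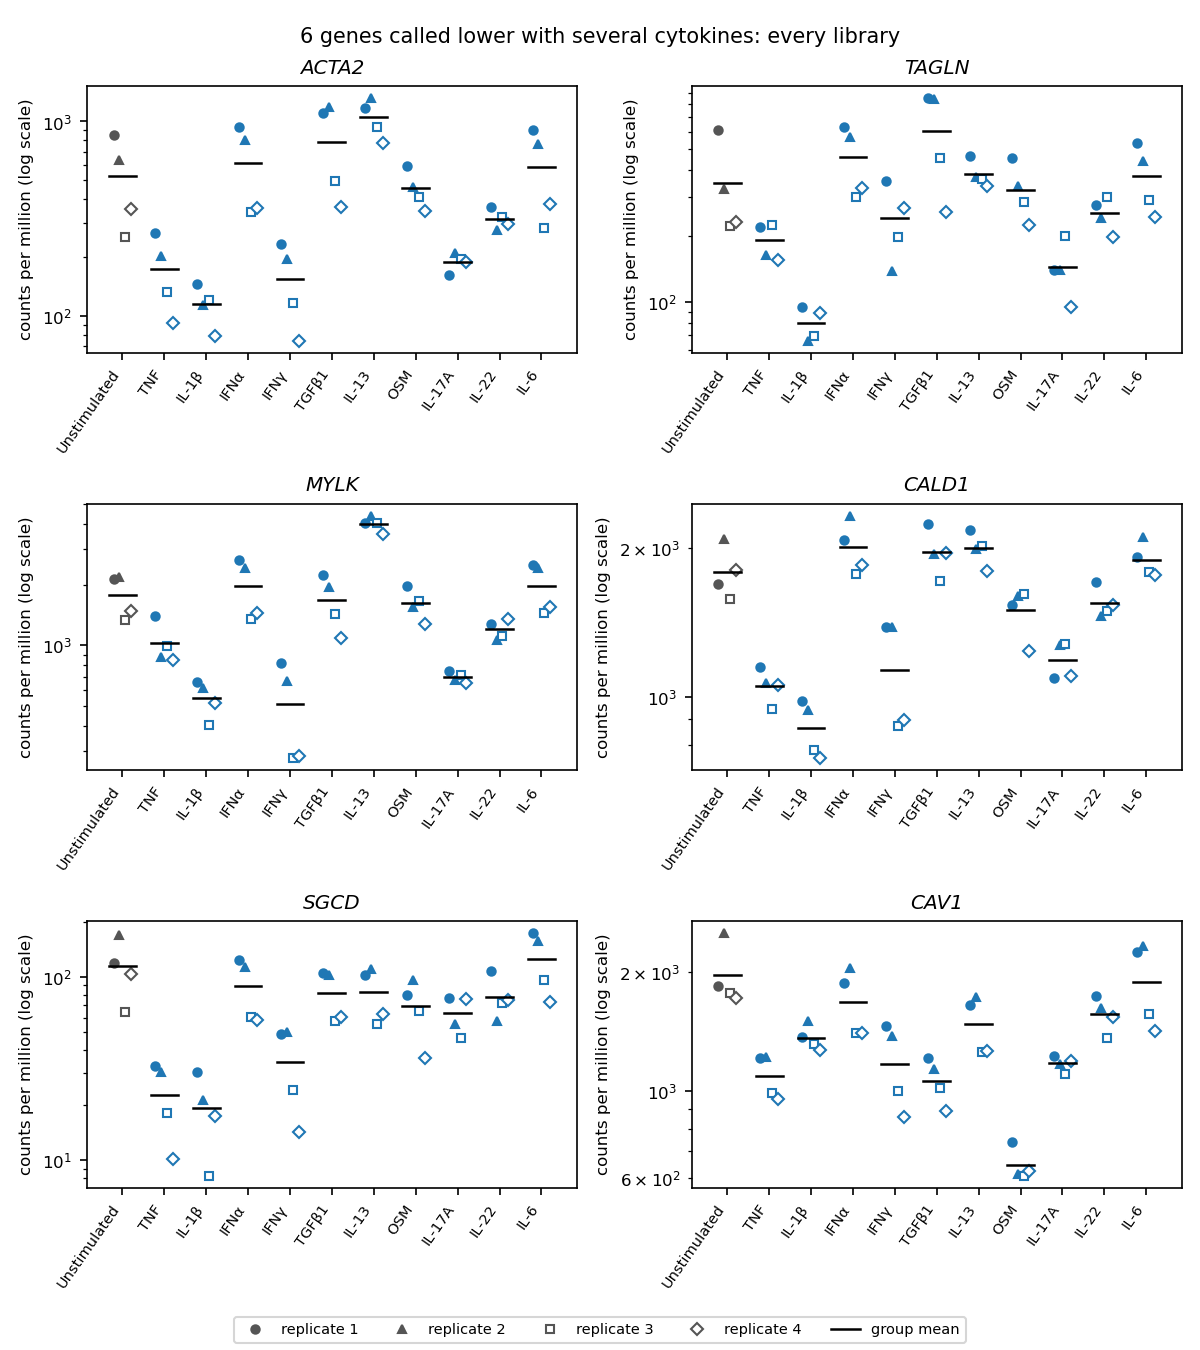
CPM on a log axis in every library for ACTA2, TAGLN, MYLK, CALD1, SGCD and CAV1, in unstimulated cells (grey) and with each cytokine (blue). Filled symbols are replicates 1 and 2, open symbols replicates 3 and 4, and black bars are group means. ACTA2, MYLK and SGCD show filled symbols above open ones in most groups, and CAV1 is lowest with OSM.

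MYL9 encodes the regulatory light chain that the kinase phosphorylates. It fell with IL-1β, from 117, 54.7, 42.9 and 47.8 to 32.8, 23.9, 22.9 and 24.6 CPM (log2 fold change -1.33, SE 0.32, adjusted p = 0.00354), a call that passed with all libraries and was lost without unstimulated replicate 1 (adjusted p up to 0.0913). MYL6 was the only member to rise with both TGFβ1 (4965 ± 1085 CPM, log2 fold change 0.55, SE 0.16, adjusted p = 0.0333) and IL-13 (5415 ± 155 CPM, log2 fold change 0.67, SE 0.16, adjusted p = 0.00891), from 3399 ± 346 CPM. The TGFβ1 call passed with all libraries and was lost without unstimulated replicates 2 or 4 or without TGFβ1 replicates 1, 2 or 3 (adjusted p up to 0.138), and the IL-13 libraries all lay above the unstimulated ones. The IL-13 call was lost with library totals and no further scaling (adjusted p = 0.0995). MYH11, the smooth muscle myosin heavy chain, held 6.86, 2.19, 0 and 0.683 CPM unstimulated, from 18 counts over the group. IL-13 libraries held 12.6, 14.7, 14.4 and 3.55 CPM (95% interval 0.32 to 3.91 around a log2 fold change of 2.12, adjusted p = 0.206) and IFNγ libraries 0.753, 0, 0.867 and 0 CPM, from 2 counts, and neither was called.

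Of the 5 tested crosslinker and dense body genes, 2 fell with IL-1β, 1 with TNF and 1 with IL-17A. ACTN1 and ACTN4 encode the α-actinins, which bundle actin at adhesions and dense bodies. ACTN1 fell from 168, 140.0, 122 and 112 to 73.2, 75.6, 59.7 and 46.7 CPM with IL-1β (log2 fold change -1.09, SE 0.22, adjusted p = 6.60e-04), without overlap. With IL-17A it held 72.4, 56.2, 88.1 and 77.0 CPM (log2 fold change -0.89, SE 0.22, adjusted p = 0.0251), also without overlap, a call that passed with all libraries and was lost without unstimulated replicates 1 or 2 or without IL-17A replicates 1, 2 or 4 (adjusted p up to 0.141). ACTN4 went from 26.4, 29.2, 18.3 and 29.4 to 13.1, 9.94, 11.4 and 10.4 CPM with IL-1β (log2 fold change -1.19, SE 0.28, adjusted p = 0.00307), a call that held without each of the 8 libraries in turn and was lost with all genes that had any count (adjusted p = 0.0912).

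SYNPO2 encodes an actin-bundling protein of the Z-disc and dense body (myopodin). It held 1.96, 10.9, 8.44 and 2.73 CPM unstimulated, 35 counts over the group, and 1.41, 0, 0 and 0.536 CPM with TNF, 3 counts. That is a ratio of 10.7 with a counting interval of 3.37 to 54.4, with an adjusted p of 0.0241. The call held with all libraries and was lost without unstimulated replicates 2 or 3 or without TNF replicates 2, 3 or 4 (adjusted p up to 0.101). The filamins FLNA (group means 11.7 to 25.8 CPM) and FLNC (4.20 to 22.9 CPM) were called for no cytokine. DES, the muscle intermediate filament gene, had 4 counts in all, in 1 OSM library.

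Adhesion plaque and LIM-domain genes fell with IL-1β (4 of 7), IFNγ (3), IL-17A (2), and TNF, IFNα and TGFβ1 (1 each), and none rose. LPP, whose product is a zyxin-family LIM protein of adhesions that is abundant in smooth muscle, was the gene behind the last 3. Unstimulated libraries held 197, 332, 199.8 and 238 CPM. With IFNα they held 94.8, 90.9, 108 and 81.0 CPM, all below the unstimulated range and 2.58-fold lower (log2 fold change -1.37, SE 0.23, adjusted p = 1.59e-05). TNF libraries held 102, 124, 109 and 109 CPM, again without overlap (log2 fold change -1.12, SE 0.23, adjusted p = 3.68e-04).

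The falls of LPP with IL-1β (log2 fold change -0.82, SE 0.22, adjusted p = 0.0119), IFNγ (log2 fold change -0.83, SE 0.22, adjusted p = 0.0104) and TGFβ1 (log2 fold change -0.72, SE 0.22, adjusted p = 0.0457) were smaller. The IL-1β call passed and was lost without unstimulated replicate 2 or without IL-1β replicate 4 (adjusted p up to 0.128). The IFNγ call passed and was lost without unstimulated replicate 2 or without IFNγ replicates 3 or 4 (adjusted p up to 0.105). The TGFβ1 call passed and was lost without unstimulated replicates 2 or 4 or without TGFβ1 replicates 1, 3 or 4 (adjusted p up to 0.271). LPP was the only member called with IFNα, and that call held without each of the 8 libraries in turn.

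PDLIM5, a PDZ and LIM protein that ties kinases to α-actinin, held 128, 179, 134 and 155 CPM unstimulated and 66.3, 59.0, 59.0 and 55.5 CPM with IFNγ (log2 fold change -1.31, SE 0.17, adjusted p = 8.28e-08). IL-1β libraries held 100.4, 73.6, 83.2 and 93.4 CPM (log2 fold change -0.76, SE 0.16, adjusted p = 9.08e-04) and IL-17A libraries 77.0, 115, 84.9 and 97.6 CPM (log2 fold change -0.67, SE 0.16, adjusted p = 0.0182), the latter a call that passed with all libraries and was lost without unstimulated replicate 2 or without IL-17A replicates 1 or 3 (adjusted p up to 0.146). No library of the 3 groups reached the unstimulated range. CSRP1, a LIM-only protein of smooth muscle that binds α-actinin and zyxin, held 92.5, 45.2, 51.4 and 33.5 CPM unstimulated. It was called with IL-1β at 34.3, 23.9, 23.5 and 29.2 CPM (log2 fold change -1.01, SE 0.28, adjusted p = 0.0149), a call that passed with all libraries and was lost without unstimulated replicate 1 or without IL-1β replicates 2 or 3 (adjusted p up to 0.219). With IL-17A it held 28.3, 18.7, 27.2 and 26.4 CPM (log2 fold change -1.15, SE 0.28, adjusted p = 0.0221), a call that passed with all libraries and was lost without unstimulated replicate 1 or without IL-17A replicates 2, 3 or 4 (adjusted p up to 0.257).

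VCL encodes vinculin, which links actin to integrin and cadherin adhesions. It went from 93.0 ± 23.5 to 50.2 ± 15.4 CPM with IFNγ (log2 fold change -0.88, SE 0.22, adjusted p = 0.00568), a call that passed with all libraries and was lost without IFNγ replicate 3 (adjusted p up to 0.0535). With IL-1β it averaged 55.3 ± 17.3 CPM (log2 fold change -0.75, SE 0.22, adjusted p = 0.0238), a call that passed with all libraries and was lost without unstimulated replicates 1 or 2 or without IL-1β replicate 4 (adjusted p up to 0.190). In both groups some libraries overlapped the unstimulated range. Talin (TLN1), zyxin (ZYX) and PDLIM7 were not called for any cytokine against unstimulated cells, with group means of 15.3 to 30.1, 4.25 to 19.5 and 20.2 to 46.9 CPM.

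Caveolae, the membrane and calcium handling held the widest range of responses. CAV1, the scaffold protein of caveolae, fell with 6 of 10 cytokines and rose with none. Its unstimulated libraries held 1848, 2517, 1775 and 1724 CPM and its OSM libraries 742, 614, 608 and 624 CPM, 3.04-fold lower (log2 fold change -1.60, SE 0.17, adjusted p = 8.20e-09). TGFβ1 libraries held 1207, 1134, 1014 and 889 CPM (log2 fold change -0.89, SE 0.17, adjusted p = 5.51e-04), TNF libraries 1211, 1214, 984 and 949.7 (log2 fold change -0.85, SE 0.17, adjusted p = 3.56e-04), IFNγ libraries 1458, 1379, 995 and 857 (log2 fold change -0.75, SE 0.17, adjusted p = 0.00203) and IL-17A libraries 1226, 1169.5, 1100.1 and 1193 (log2 fold change -0.75, SE 0.17, adjusted p = 0.0119). All 6 groups lay below the unstimulated range.

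The IL-17A call of CAV1 passed with all libraries and was lost without unstimulated replicate 2 or without IL-17A replicate 3 (adjusted p up to 0.130). The IL-1β one, at 1362 ± 101 CPM, was the smallest (log2 fold change -0.53, SE 0.17, adjusted p = 0.0450), a call that passed with all libraries and was lost without unstimulated replicates 1 or 2 or without IL-1β replicates 1, 2, 3 or 4 (adjusted p up to 0.296). CAVIN1, the coat protein that shapes caveolae together with caveolin, fell from 118 ± 28.2 to 62.0 ± 14.2 CPM with IL-1β (log2 fold change -0.93, SE 0.23, adjusted p = 0.00615), a call that passed with all libraries and was lost without unstimulated replicate 1 or without IL-1β replicate 3 (adjusted p up to 0.0567). With OSM, where CAV1 was lowest, CAVIN1 averaged 87.4 ± 17.8 CPM and was not called (adjusted p = 0.382).

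SGCD encodes δ-sarcoglycan, part of the complex that anchors the muscle membrane to the matrix. Unstimulated libraries held 119, 169.9, 64.0 and 104 CPM. They held 30.3, 21.2, 8.26 and 17.5 CPM with IL-1β, 32.5, 30.1, 18.0 and 10.2 with TNF and 49.0, 49.8, 24.3 and 14.2 with IFNγ, and none of those 12 reached the lowest unstimulated one. The falls were 5.83-fold (log2 fold change -2.54, SE 0.39, adjusted p = 6.96e-06), 5.10-fold (log2 fold change -2.35, SE 0.39, adjusted p = 2.57e-05) and 3.33-fold (log2 fold change -1.73, SE 0.38, adjusted p = 0.00129), and no single library left out ended any of the calls. With IL-17A, SGCD held 76.5, 55.4, 46.5 and 75.2 CPM (log2 fold change -0.84, 95% interval -1.57 to -0.11) and was not called.

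PLN encodes phospholamban, the inhibitor of the calcium pump of the sarcoplasmic reticulum, and had the largest folds in both directions among members with counts in both groups. It was even across the unstimulated libraries, at 9.30, 10.9, 9.85 and 10.2 CPM (63 counts over the group). With TGFβ1 it held 68.6, 40.4, 49.0 and 42.6 CPM, all above the unstimulated range and 4.95-fold higher (log2 fold change 2.31, SE 0.60, adjusted p = 0.0126), a call that passed with all libraries and was lost without TGFβ1 replicate 1 (adjusted p up to 0.0547). With IFNγ it held 0, 0, 0.867 and 0 CPM (1 count, a ratio of 50.9 with a counting interval of 8.81 to 2042, adjusted p = 2.16e-04). TNF libraries held 1.41, 0, 0 and 0 CPM (2 counts, a ratio of 28.9, interval 7.67 to 244, adjusted p = 2.73e-04) and IL-1β libraries 2.52, 0, 1.27 and 0 CPM (7 counts, log2 fold change -3.20, SE 0.75, adjusted p = 0.00294). IL-13 libraries were also all below the unstimulated range, at 1.33, 2.32, 4.04 and 3.55 CPM, but were not called (adjusted p = 0.136).

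RGS5, a regulator of G-protein signalling that is also a pericyte marker, rose only with IL-13. Its unstimulated libraries held 17.1, 24.8, 21.1 and 10.9 CPM and its IL-13 libraries 49.1, 51.0, 129 and 113 CPM, 4.63-fold higher with no overlap (log2 fold change 2.21, SE 0.41, adjusted p = 3.19e-04). Replicates 3 and 4 of IL-13 were both higher than replicates 1 and 2, the reverse of the order of ACTA2 with IL-13. IL-17A libraries, at 44.5, 49.9, 52.1 and 43.6 CPM, were all above the unstimulated range as well, but were not called (adjusted p = 0.0793). The other 4 pericyte markers examined, NOTCH3, CSPG4, KCNJ8 and ABCC9, summed to 4.04 to 16.6 CPM in the IL-13 libraries and to 6.33 to 15.3 CPM in the unstimulated ones, and NOTCH3 was at 0 in 25 of 44 libraries. Their part in the RGS5 result was not tested.

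HSPB7, a small heat shock protein of muscle, and XIRP2, which binds actin and α-actinin at intercalated discs, had few counts throughout. HSPB7 held 7.34, 5.10, 3.52 and 0.683 CPM unstimulated (28 counts) and 0 in all 4 IL-17A libraries, at least 9.52-fold lower against a floor of 3 counts over the group. The call (adjusted p = 0.0462) passed with all libraries and was lost without unstimulated replicates 1 or 2 or without IL-17A replicates 1, 2, 3 or 4 (adjusted p up to 0.147). XIRP2 held 3.92, 3.65, 6.33 and 14.3 CPM unstimulated (43 counts) and 0 in all 4 IL-13 libraries, at least 12.9-fold lower (adjusted p = 0.0108). SRF, the transcription factor of the CArG box, was called for no cytokine, with group means from 2.92 to 8.84 CPM and 20, 5, 6 and 8 counts in the unstimulated libraries.

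**Figure D4:**
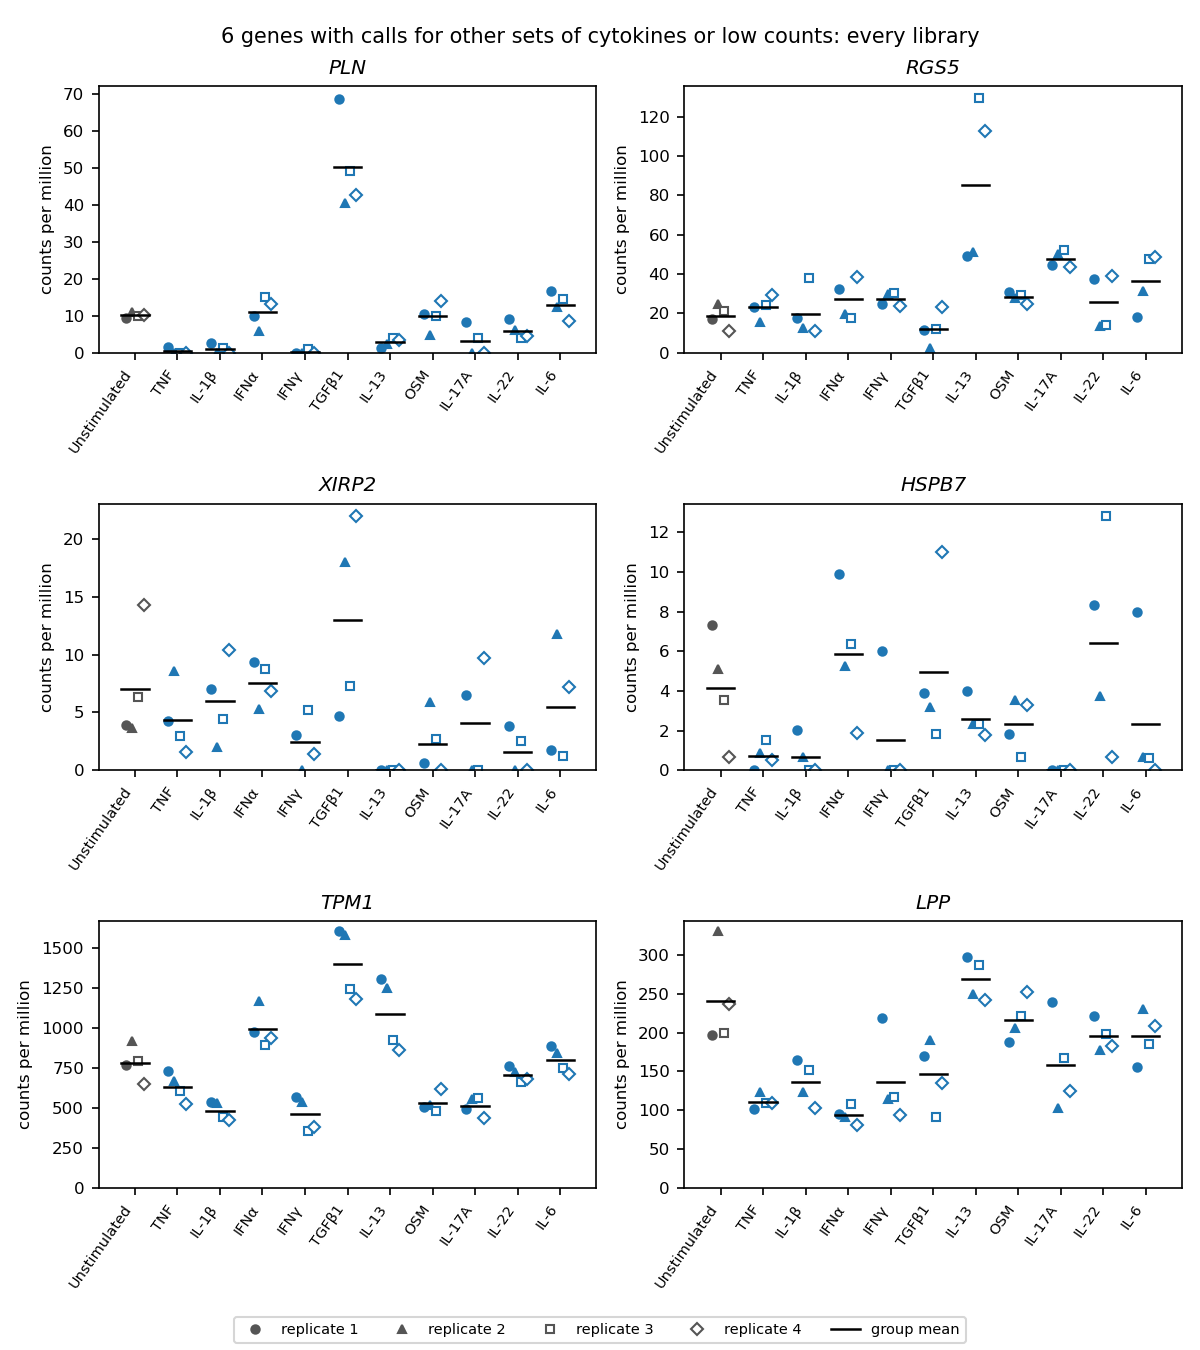
CPM in every library for PLN, RGS5, XIRP2, HSPB7, TPM1 and LPP on linear axes that start at 0, in unstimulated cells (grey) and with each cytokine (blue), with group means as black bars. PLN and TPM1 are highest with TGFβ1, RGS5 with IL-13, LPP is lowest with IFNα, and XIRP2 with IL-13 and HSPB7 with IL-17A lie at 0 in all libraries.

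Reads of some members can be shared with neighbours, and whether strand was used in counting is not stated. ACTA2-AS1 overlaps 38.3% of the ACTA2 transcript on the opposite strand (2862 counts over all libraries against 28904 for ACTA2). PCSK7 overlaps 59.0% of the canonical TAGLN transcript (5412 against 19687 counts), and CAPN12 17.4% of ACTN4 (473 against 1597 counts), both on the opposite strand. NDE1 overlaps 13.3% of MYH11 on the opposite strand (68 against 230 counts). On the same strand, where strand could not separate the reads, an annotated gene without a symbol overlaps 66.0% of the canonical TAGLN transcript. No count was found for that gene. MYL6B overlaps 12.6% of MYL6 on the same strand (666 against 242790 counts). Pseudogenes named after TPM3 held counts equal to 1.9% of those of TPM3, and those named after TPM4, DSTN and MYL6 held smaller shares.

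The cytokines were also compared with each other in 4 direct tests, whose log2 differences are taken between the 2 cytokine groups. These tests come from the fit of all 44 libraries. The unstimulated libraries thus still enter the filter, the scaling and the shared estimate of spread behind the SE and p-values. TNF and IL-1β share much of their signalling, and 4 of 38 members were higher with TNF and 0 lower, against 0.452% and 0.694% of all genes. They were PDLIM5 (log2 difference 0.92, SE 0.16, adjusted p = 6.09e-04), TAGLN (log2 difference 1.25, SE 0.33, adjusted p = 0.0409), CSRP1 (log2 difference 1.09, SE 0.28, adjusted p = 0.0364) and ZYX (log2 difference 2.04, SE 0.54, adjusted p = 0.0462). ACTA2 (log2 difference 0.58, 95% interval -0.19 to 1.36) and SGCD (log2 difference 0.19, 95% interval -0.65 to 1.03) were not shown to differ between them. Only 1 of the 8 libraries, TNF replicate 4, could be left out without lowering this count, which was 1 or 2 without each of the other libraries. The doses of TNF and IL-1β differed, at 10 and 0.1 ng/ml in the labels.

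Between the interferons, which use different receptors, 13 of 38 members were higher with IFNα than with IFNγ and 0 lower, against 4.93% and 4.46% of all genes. MYLK (log2 difference 1.94, SE 0.27, adjusted p = 9.84e-07), ACTA2 (log2 difference 1.98, SE 0.39, adjusted p = 3.64e-04) and PDLIM5 (log2 difference 1.41, SE 0.17, adjusted p = 2.67e-08) were among the 13, with TPM1, TPM4, CALD1, DSTN, VCL, SGCD, CAV1, ACTN1, ACTG2 and PLN. LPP was the exception among the genes that IFNγ lowered, at 93.7 ± 11.2 CPM with IFNα and 136 ± 55.9 with IFNγ (adjusted p = 0.147). Without IFNγ replicate 3, 8 members remained.

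Between TGFβ1 and IL-13, both linked to fibrosis, 3 members were higher with TGFβ1 and 6 with IL-13, against 6.05% and 6.39% of all genes. PLN (log2 difference 4.12, SE 0.68, adjusted p = 1.70e-05), FLNC (log2 difference 1.73, SE 0.52, adjusted p = 0.0214) and XIRP2 (13.0 against 0 CPM, adjusted p = 7.04e-04) were the 3. RGS5 (log2 difference -2.75, SE 0.43, adjusted p = 6.85e-06), MYLK (log2 difference -1.26, SE 0.26, adjusted p = 5.68e-04), LPP (log2 difference -0.88, SE 0.22, adjusted p = 0.00545), VCL, TPM2 and DSTN were the 6. Without scaling beyond library totals the split was 4 higher with TGFβ1 and 4 with IL-13. ACTA2 (log2 difference -0.42, 95% interval -1.16 to 0.33) and TAGLN (log2 difference 0.64, 95% interval 0.01 to 1.28) were not shown to differ.

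Between TGFβ1 and TNF, 7 members were higher with TGFβ1 and 0 lower, against 3.03% and 3.2% of all genes. ACTA2 (log2 difference 2.19, SE 0.39, adjusted p = 9.30e-05), TAGLN (log2 difference 1.66, SE 0.32, adjusted p = 3.30e-04), TPM1 (log2 difference 1.15, SE 0.16, adjusted p = 9.24e-07), CALD1 (log2 difference 0.90, SE 0.14, adjusted p = 1.73e-05) and SGCD (log2 difference 1.86, SE 0.40, adjusted p = 0.00125) were among them, with PLN and SYNPO2, which TNF left at 2 and 3 counts. ACTA2 and TAGLN were thus called in this direct comparison although neither was called for TGFβ1, nor TAGLN for TNF, against unstimulated cells.

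Another 2 lists of related genes were examined beside the members. Of 31 tested genes of the non-muscle actin cytoskeleton, 10 fell with IL-1β, 6 with TNF, 5 with IFNγ, 4 with TGFβ1 and 2 each with OSM and IL-17A. The shares of all genes called lower were 3.92%, 6.09%, 5.13%, 3.08%, 2.54% and 0.925% in that order. Another 3 rose with IFNα, 3 with IL-13 and 1 with OSM, against 4.99%, 1.53% and 1.42% of all genes. EZR, which encodes ezrin, went from 91.2 ± 9.72 to 21.0 ± 11.6 CPM (log2 fold change -2.10, adjusted p = 6.05e-04) with IL-1β. PALLD, which encodes the α-actinin partner palladin, went from 603 ± 148 to 220.3 ± 144 CPM (log2 fold change -1.45, adjusted p = 3.25e-05) with IFNγ. PDLIM1 rose from 62.0 ± 12.1 to 171 ± 4.78 CPM (log2 fold change 1.46, adjusted p = 1.06e-05) with IFNα, and FHL2, a LIM-only cofactor, from 142 ± 38.8 to 306 ± 26.5 CPM (log2 fold change 1.10, adjusted p = 4.39e-04) with OSM, where 3 members of the muscle list had fallen.

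Of 27 tested genes of filament nucleation and turnover, 4 fell with IL-1β, 6 with IFNγ, 3 with TNF, 3 with OSM, 2 with TGFβ1 and 1 each with IFNα and IL-17A. The shares of all genes called lower were 3.92%, 5.13%, 6.09%, 2.54%, 3.08%, 4.86% and 0.925% in that order. Another 2 rose with IL-13 and 1 each with IFNα, IFNγ and TGFβ1, against 1.53%, 4.99%, 5.52% and 2.61% of all genes. A single gene is 1 of 27, so the counts of 1 do not stand apart from the shares over all genes. Counts of 2 and 3 rest on too few genes to be read as an excess. The 4 with IL-1β and 6 with IFNγ were above those shares, and the list was not tested as a set. GSN, which encodes the filament-severing gelsolin, went from 21.9 ± 2.97 to 6.57 ± 3.88 CPM (log2 fold change -1.74, adjusted p = 0.00319) with IL-1β, and CFL2, the muscle cofilin, fell with IFNγ by 1.26 on the log2 scale.

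The replicate numbers carried a further pattern in these genes, noticed after their values were seen. In 8 of the 11 groups both of replicates 1 and 2 had more ACTA2 than both of replicates 3 and 4, and in none less. The 8 groups were unstimulated, TNF, IFNα, IFNγ, TGFβ1, IL-13, OSM and IL-6. SGCD and CAV1 showed the same order in 9 groups, MYL9 and TPM1 in 8, and TAGLN and MYLK in 6. In all, 13 of 38 members (34.2%) had it in at least 6 groups, and 235 of all 9513 genes tested (2.47%) were separated in 1 direction that often. Averaged over the groups the difference was 0.82 on the log2 scale for ACTA2 and 0.81 for SGCD. The labels give no batch for these numbers, and the cause was not tested.

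The called changes were therefore also read within each pair of replicate numbers. For ACTA2 with IL-1β the log2 ratio of means was -2.51 over replicates 1 and 2 and -1.60 over replicates 3 and 4, with IFNγ -1.79 over replicates 1 and 2 and -1.67 over replicates 3 and 4 and with TNF -1.67 over replicates 1 and 2 and -1.44 over replicates 3 and 4. Among these groups it differed most with IL-17A, where it was -0.65 over replicates 3 and 4 and larger in size over replicates 1 and 2, whose unstimulated libraries held the most ACTA2. For TAGLN with IL-17A it was -1.75 over replicates 1 and 2 and -0.62 over replicates 3 and 4. Of the 64 calls, 44 remained with replicates 1 and 2 alone and 35 with replicates 3 and 4 alone, fits that use fewer libraries. A term for replicates 1 and 2 against 3 and 4 in the fit of all libraries kept all 64. Both pairs were present equally in every group, so that term could hardly move a fold, and the kept calls are no check.

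**Figure D5:**
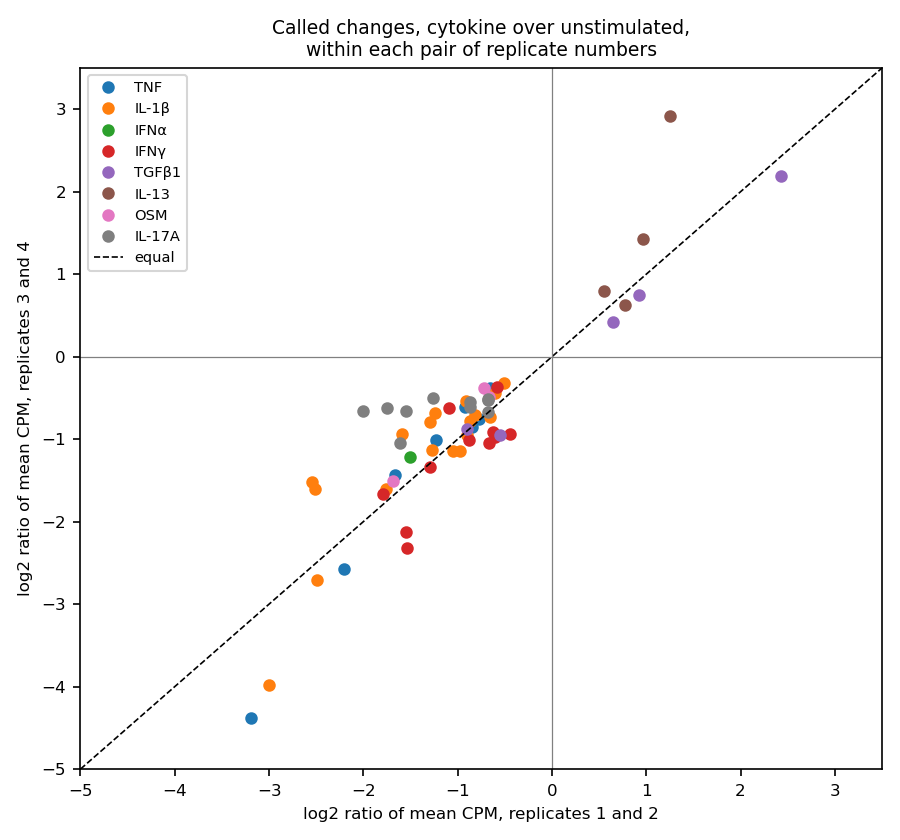
Log2 ratio of mean CPM, cytokine over unstimulated, in replicates 1 and 2 (horizontal axis) and in replicates 3 and 4 (vertical axis) for the 60 called changes with counts in both. Each point is 1 gene with 1 cytokine, coloured by cytokine, and the dashed line marks equal ratios. The changes were chosen over all 4 libraries, so a shared sign of both ratios is largely set by that choice. RGS5 with IL-13 lies farthest from the line, and among the decreases ACTA2 with IL-17A does.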

How the data were processed

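RNA was sequenced from Ccd-18Co cultures with a NEBNext Ultra II kit. The authors deposited estimated counts per gene symbol. The submitters' processing notes name kallisto 0.48.0, FastQC 0.11.9, MultiQC 1.14 and hg38. The transcriptome release and use of strand are not given in the sources used here. The 39 members and all lists were chosen with earlier results of these data known.

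Estimated counts were rounded, and genes with low counts over the 11 groups were removed with filterByExpr, leaving 9513. Library sizes were scaled by TMM, and all 44 libraries entered 1 quasi-likelihood model in edgeR 4.0.16 (R 4.3.3) with Benjamini-Hochberg adjustment over all genes. SE and 95% intervals come from that model. DESeq2 1.42.0, other scalings and filters, a replicate block and leaving out each library were alternatives. Replicate files were compared and none were identical. Lengths came from GENCODE 44 canonical transcripts and promoters from RefSeq.

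Members were given library by library if called with an absolute log2 fold change of at least 1, or if among the defining smooth muscle genes. From companion lists at most 3 called genes per list and cytokine, those of largest change, could be named; 1 further companion list is not reported here. Ratios on 1 to 3 counts carry exact counting intervals, and a group at 0 was set to a floor of 3 counts over the group. These cover counting error only.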

Additional observations from a re-analysis of the deposited data

Results flagged for a closer look

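Among 213 groups of 4 values examined over 21 members, 7 (3.29%) held a library far from the other 3 by Dixon's gap, where chance gives about 1 in 20. In unstimulated cells, replicate 1 held 117 CPM of MYL9 (others 42.9 to 54.7) and replicate 2 held 2517 CPM of CAV1 (others 1724 to 1848). MYH11 with IL-1β was at 9.08 CPM in replicate 1 (others 0.649 to 1.33). ACTN1 with IFNα was lowest in replicate 3, at 126 CPM (others 180.4 to 182). SYNPO2 with IFNα was at 19.3 CPM in replicate 4 (others 6.58 to 8.27). CAV1 with OSM was at 742 CPM in replicate 1 (others 608 to 624). HSPB7 with IL-6 was at 7.99 CPM in replicate 1 (others 0 to 0.654). The causes were not tested.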

How the results depend on the processing

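No called change of a member reversed under any alternative run. Of the 64 called changes, 63 kept their call with DESeq2's size factors, 60 with no scaling beyond library totals, 53 with all genes with any count and 63 under a minimum of 10 counts in 4 libraries, and 63 of 63 with DESeq2's Wald test. Only 43 of 61 kept it with only the libraries compared, 44 of 64 with replicates 1 and 2 alone and 35 of 64 with replicates 3 and 4 alone. Without scaling the median of all genes moved by -0.17 with IL-13, -0.13 with IL-1β and -0.11 with IFNα.

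The count of members called was 8 for IL-13 and 2 for IL-22 with DESeq2's Wald test, and 1 for OSM and 1 for IL-22 with any count. Shares of all genes under those alternatives are not given. With only the libraries compared it was 6 for IFNγ, 3 for TGFβ1, 7 for IL-17A and 6 for IFNα against IFNγ. With an absolute log2 fold change above 1.5 it was 4 for TNF, 5 for IL-1β, 0 for IFNα, 4 for IFNγ, 1 for TGFβ1, 2 for IL-13, 1 for OSM, 1 for IL-17A, 1 for TNF against IL-1β, 3 for IFNα against IFNγ and 4 for TGFβ1 against IL-13.

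The main fit did not pair same-numbered libraries, and the labels do not say whether they were paired. Correlations of their deviations ran from -0.0865 to 0.281, 6 of 40 exceeded 0.1, and 15 of 40 cytokine libraries matched their own number best. The highest were those of replicate 1 with IL-6 (0.281), IFNα (0.277) and OSM (0.250). Such correlations cannot settle whether the libraries were paired. With the replicate block 8 members were called for IL-13, and all 64 called changes kept their call. Every replicate number was present in every group, so the block could hardly move a fold.

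Chosen after seeing the data, a term for replicates 1 and 2 against 3 and 4 gave 8 for IL-13 and 7 for TNF against IL-1β. Replicates 1 and 2 alone gave 11 for IL-1β, 3 for TGFβ1, 2 for IL-22 and 2 for TNF against IL-1β. Replicates 3 and 4 alone gave 11 for IL-1β, 2 for TGFβ1, 1 for OSM, 1 for IL-17A and 1 for TNF against IL-1β. These use fewer libraries.

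Leaving out each library in turn gave 7 to 10 for TNF, 11 to 18 for IL-1β, 9 to 14 for IFNγ, 2 to 7 for TGFβ1, 4 to 6 for IL-13, 2 to 3 for OSM, 3 to 11 for IL-17A, 0 to 1 for IL-22 (1 without IL-22 replicate 4), 1 to 5 for TNF against IL-1β, 8 to 15 for IFNα against IFNγ, 6 to 11 for TGFβ1 against IL-13 and 6 to 10 for TGFβ1 against TNF. Where not given, the cause was not tested. Depth limits genes such as MYH11, HSPB7, XIRP2, LMOD1 and SYNPO2.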
